A study of Mus musculus with 6 samples.

Results

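The 33 genes described here make up the protein-folding and unfolded-protein machinery of the endoplasmic reticulum (ER) together with the main heat shock chaperones, and they were chosen by name from the 21825 genes of the deposited table. They comprise 24 ER genes, 7 cytosolic heat shock genes and the 2 genes of the mitochondrial chaperonin. All 33 had a row, and all 33 passed the filter on low counts that left 15719 genes for testing. The ER genes fall into 5 roles: 5 chaperones, 4 protein disulfide isomerases, 6 co-chaperones and targets of the unfolded protein response, 4 genes for the response's sensors and its factor XBP1, and 5 genes of ER-associated degradation.

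The cells were group 2 innate lymphoid cells (ILC2s), tissue lymphocytes that secrete type 2 cytokines without an antigen receptor, sorted from lungs of BALB/c mice aged 6 weeks. All of the mice had been given IL-33, 1 µg by the intraperitoneal route on 3 occasions, and all of the sorted cells were cultured for 48 h with IL-2 and IL-7 at 10 ng/mL each. The groups differed in the addition of TNFa at 40 ng/mL or of PBS, with 3 libraries each: PBS 1, 2 and 3, and TNFa 4, 5 and 6. The labels do not tell whether libraries of a group stem from separate animals or cultures, so each p-value measures the spread between these libraries, which may be technical. Both groups share the exposure to IL-33, IL-2 and IL-7. Library totals ran from 25089415 to 32487004 counts. PBS 2 is marked as a repeat in its label, without saying of what. TNFa 5 stood apart: its mean correlation with the other libraries over all genes was 0.949, and that of the other 5 lay between 0.964 and 0.967.

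Proteins bound for secretion are folded in the ER by chaperones and have disulfide bonds formed by the isomerases. When unfolded protein builds up there, the sensors IRE1 (gene Ern1), ATF6 and PERK (gene Eif2ak3) start the unfolded protein response. IRE1 splices the mRNA of Xbp1, and the factors XBP1 and ATF6 then raise the transcription of chaperone and degradation genes. In the cytosol the analogous response is run by the heat shock factor HSF1, which binds heat shock elements. Counts per gene do not separate spliced from unspliced Xbp1 mRNA, nor do they show whether a sensor is active.

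Promoter sites are printed here because known factors recognise ER stress genes and heat shock genes by different short sequences. RefSeq promoter windows on GRCm38.p6, the mm10 build, from 250 bases before to 50 after a start site, were found for 27 of the 33 genes. No window was available for Hyou1, Manf, Atf6, Hspa8, Hsp90aa1 and Hsp90ab1. The ER stress response element (ERSE) was searched as CCAAT, then 9 free bases, then CCACG, on both strands. It occurred in 9 of the 27 genes, all of them among the 21 ER genes with a window, against 39 of all 32851 windows (0.119%). In the lines that follow, the 2 fixed parts of each site are in capitals, flanked by 12 bases on each side and read 5′ to 3′ on the strand of the gene; where a site lies in the opposite orientation its parts read as CGTGG and ATTGG.
Hspa5 (chr2:34772025-34772043, plus strand): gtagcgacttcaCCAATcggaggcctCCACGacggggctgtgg
Hsp90b1 (chr10:86705638-86705656, minus strand): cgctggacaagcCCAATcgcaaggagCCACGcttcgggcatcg
Hsp90b1 (chr10:86705533-86705551, minus strand): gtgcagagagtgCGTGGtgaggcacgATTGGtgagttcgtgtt
Calr (chr8:84847075-84847093, minus strand): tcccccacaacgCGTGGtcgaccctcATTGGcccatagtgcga
Canx (chr11:50325800-50325818, minus strand): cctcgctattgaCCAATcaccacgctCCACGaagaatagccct
Pdia6 (chr12:17266491-17266509, plus strand): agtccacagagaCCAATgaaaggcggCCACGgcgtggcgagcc
Dnajc3 (chr14:118937827-118937845, plus strand): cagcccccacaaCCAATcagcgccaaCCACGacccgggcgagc
Creld2 (chr15:88819520-88819538, plus strand): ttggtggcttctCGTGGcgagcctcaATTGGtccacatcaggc
Syvn1 (chr19:6046532-6046550, plus strand): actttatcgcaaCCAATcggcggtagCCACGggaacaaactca

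Derl3 held the ninth such window. A shorter variant, ERSE-II, searched as ATTGG, then 1 free base, then CCACG, occurred in 2 further ER genes, Herpud1 and Dnajb11, and in 12 of all 32851 windows (0.0365%). The Herpud1 site is shown because it lies close before the start site, from position -52 to -42, while the Dnajb11 site lies just after it.
Herpud1 (chr8:94386377-94386387, plus strand): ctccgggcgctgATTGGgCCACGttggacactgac

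Another element bound by ATF6 and XBP1, searched as TGACGTGG, was found in none of the 27 genes and in 222 of all windows (0.676%). The remaining 10 ER genes with a window had no ERSE or ERSE-II in it, which says only that these letters are not in those windows.

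The heat shock element was searched as 3 alternating units of GAA and TTC with 2 free bases between units. It occurred in 3 of the 27 genes, Hsph1, Hspd1 and Hspe1, and in 198 of all windows (0.603%). Hspd1 and Hspe1 stand head to head on chromosome 1. The Hspe1 window and 1 of the 2 Hspd1 windows cover the same pair of overlapping sites (chr1:55088059-55088071 and chr1:55088064-55088076). The other Hspd1 window held 0 such elements, and the pair lies after the start site of that window. The first site is printed as read toward Hspe1, with the 3 units in capitals. It was chosen because it lies before Hspe1 and before 1 of the Hspd1 start sites. The fitted folds of these 2 genes of the mitochondrial chaperonin were the highest of the 33 apart from the Hspa1a and Hspa1b pair.
Hspe1 (chr1:55088059-55088071, plus strand): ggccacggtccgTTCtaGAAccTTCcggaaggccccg

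Hsph1 had its site just after the start site. No heat shock element of this strict form was found in the windows of Hspa1a, Hspa1b and Dnajb1, and none of the 4 cytosolic genes with a window held an ERSE.

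**Figure D1:**
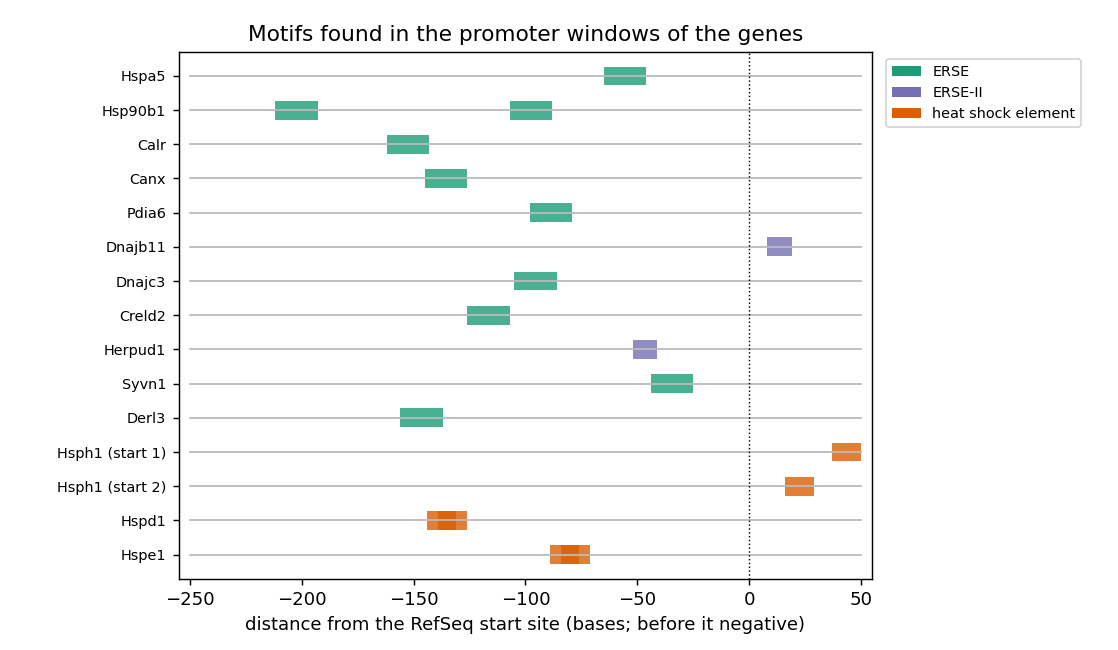
Motifs in the promoter windows of the genes that hold one, by distance from the RefSeq start site in bases (dotted line at the start site). Green bars are ERSE, purple bars ERSE-II and orange bars heat shock elements. ERSE bars lie between -212 and -26, and 2 RefSeq start sites are drawn for Hsph1. For Hspd1 only the start site whose window holds the elements is drawn.

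In PBS cultures ER chaperones were among the most abundant transcripts of these cells. Levels between genes were compared in TPM, a unit in which counts are divided by the length of the gene's exons and scaled to a common total per library. Of the 33 genes the highest was Hsp90ab1, the constitutive cytosolic HSP90, at 1543 ± 62.9 TPM (mean ± SD, n = 3), number 75 among the tested genes. Next came Pdia3, an isomerase that works on glycoproteins, at 1298 ± 19.6 TPM, the lectin chaperone Calr at 1133 ± 79.7 and Hsp90b1 (GRP94) at 1105 ± 49.6. The libraries of Calr and Hsp90b1 overlapped, and those of Pdia3 lay above both. Hspa5, the ER HSP70 known as BiP, stood at 838.7 ± 71.99 TPM, number 184. The 24 ER genes together took 1.15% to 1.20% of all counts in the PBS libraries, and the 7 cytosolic genes 0.348% to 0.386%.

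The 3 sensors were lower than most of the chaperone genes. Ern1 stood at 13.4 ± 0.979 TPM with PBS, Eif2ak3 at 15.9 ± 2.02 and Atf6 at 19.5 ± 2.10, and of these neighbours Eif2ak3 and Atf6 overlapped while Ern1 and Eif2ak3 nearly touched. Xbp1, by contrast, stood at 497 ± 16.9 TPM. The stress-inducible HSP70 pair was low, with Hspa1a at 3.19 ± 0.125 TPM and Hspa1b at 5.38 ± 2.64, against 573.8 ± 27.1 TPM for Hspa8, the constitutive cytosolic HSP70. Derl3, a degradation factor typical of secretory cells, was lowest of all at 1.87 ± 1.17 TPM.

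**Figure D2:**
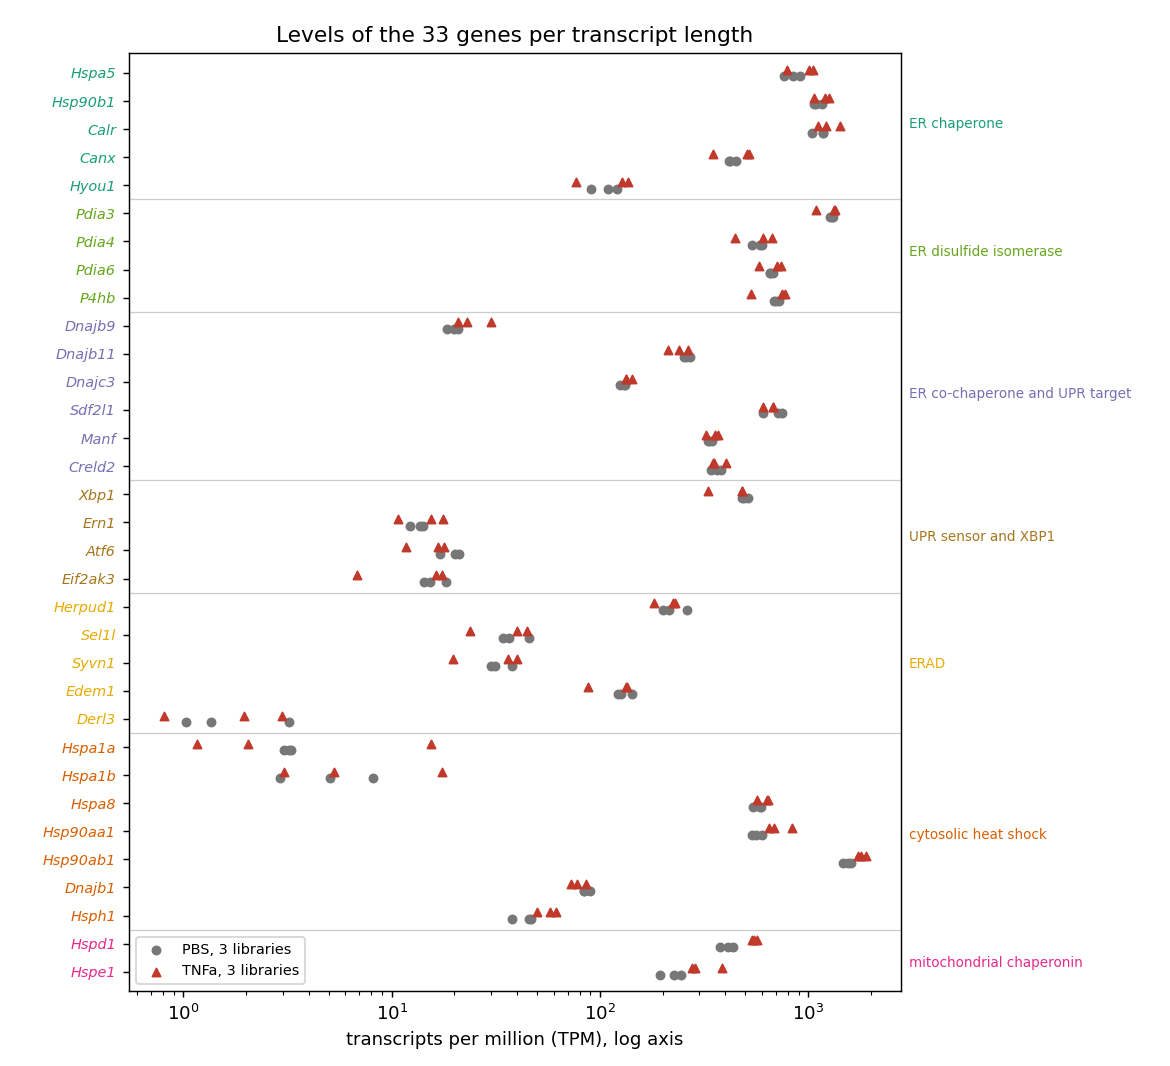
Level of each of the 33 genes in TPM on a log axis, grouped by role, with 1 point per library (grey circles PBS, red triangles TNFa). Levels with PBS run from 1.87 TPM for Derl3 to 1543 TPM for Hsp90ab1, and the 3 sensor genes lie between 6.82 and 21.1 TPM in all 6 libraries.

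The comparison of TNFa with PBS asked whether this machinery moved with the cytokine. Bulk libraries cannot tell fewer cells of a type from less RNA per cell. By edgeR's quasi-likelihood test, adjusted after Benjamini and Hochberg over all 15719 genes at a threshold of 0.05, 0 of the 33 were called, where 0.102% of all genes were (0.0891% higher and 0.0127% lower with TNFa). DESeq2, another count test, called 1 of the 33, Hspd1, where it called 1.57% of genes, and limma-voom called 0. At an unadjusted p under 0.05 there were 6 of the 33, all higher with TNFa, where 8.31% of all genes had such a p and 3.68% had it on the higher and 4.63% on the lower side. These were Hspd1, Hspe1, Hsph1, Hsp90aa1, Hsp90ab1 and Hspa5: both mitochondrial genes, 3 of 7 cytosolic genes and 1 of 24 ER genes.

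The 3 compartments differed in their fitted values. The median log2 fold change was 0.02 over the 24 ER genes, 0.41 over the 7 cytosolic genes and 0.52 over the mitochondrial pair, beside 0.00469 over all tested genes. Without the uncertain pair Hspa1a and Hspa1b the cytosolic median was 0.27 over 5 genes. Over all 7 it was 0.14 without TNFa 4, 0.20 without TNFa 5 and 0.27 with limma-voom, and the mitochondrial median was 0.36 without TNFa 5. Within single libraries the median cytosolic deviation from the PBS mean was 0.12, -0.07 and -0.05 in PBS 1, 2 and 3. In TNFa 4, 5 and 6 it was 0.25, 0.17 and 0.13, each below the fitted median of 0.41. Read library by library, the median ER deviation from the PBS mean less the median cytosolic deviation was -0.09, 0.04 and 0.05 in PBS 1, 2 and 3 and -0.21, -0.28 and -0.02 in TNFa 4, 5 and 6. The ER genes thus stood below the cytosolic ones in TNFa 4 and 5, while TNFa 6 lay within the PBS range. The difference of the 2 fitted medians, -0.39, was -0.16 without TNFa 4 and -0.115 without TNFa 5, and no test was made of it.

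In summed CPM, counts scaled to a common library total with TMM factors, genes weigh by their abundance. On this scale the ER genes came to 11700 ± 109.5 with PBS and 12260 ± 625 with TNFa, a ratio of 1.05. The cytosolic genes came to 3651 ± 285.6 and 4400 ± 541.5, a ratio of 1.205, and the mitochondrial pair to 517.6 ± 27.8 and 728.8 ± 88.3, a ratio of 1.41. In TNFa 4, 5 and 6 the cytosolic sums were 4111, 5025 and 4064, beside 3978 in PBS 1. The ER sums were 12360, 11590 and 12830, and the mitochondrial sums 675.7, 830.7 and 680.1. Of the TNFa libraries, TNFa 5 thus had the highest cytosolic and mitochondrial sums and the lowest ER sum.

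In 11 of the 33 genes the groups did not overlap in TMM-scaled CPM, 9 higher and 2 lower with TNFa, beside 15.2% of all tested genes (6.83% higher and 8.35% lower). The scale mattered for which ones. In TPM there were 7, beside 14.6% of all genes: Hspa5, Hsp90b1, Calr, Hspa8 and Atf6 then overlapped and Hsp90aa1 did not. With counts scaled to library totals there were again 11, beside 15.3% of all tested genes, without Hspa5 and Atf6 and with Dnajb9 and Hsp90aa1. Hspd1, Hspe1, Hsph1, Hsp90ab1 and Dnajc3 on the higher side and Xbp1 on the lower side did not overlap on any of the 3 scales.

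**Figure D3:**
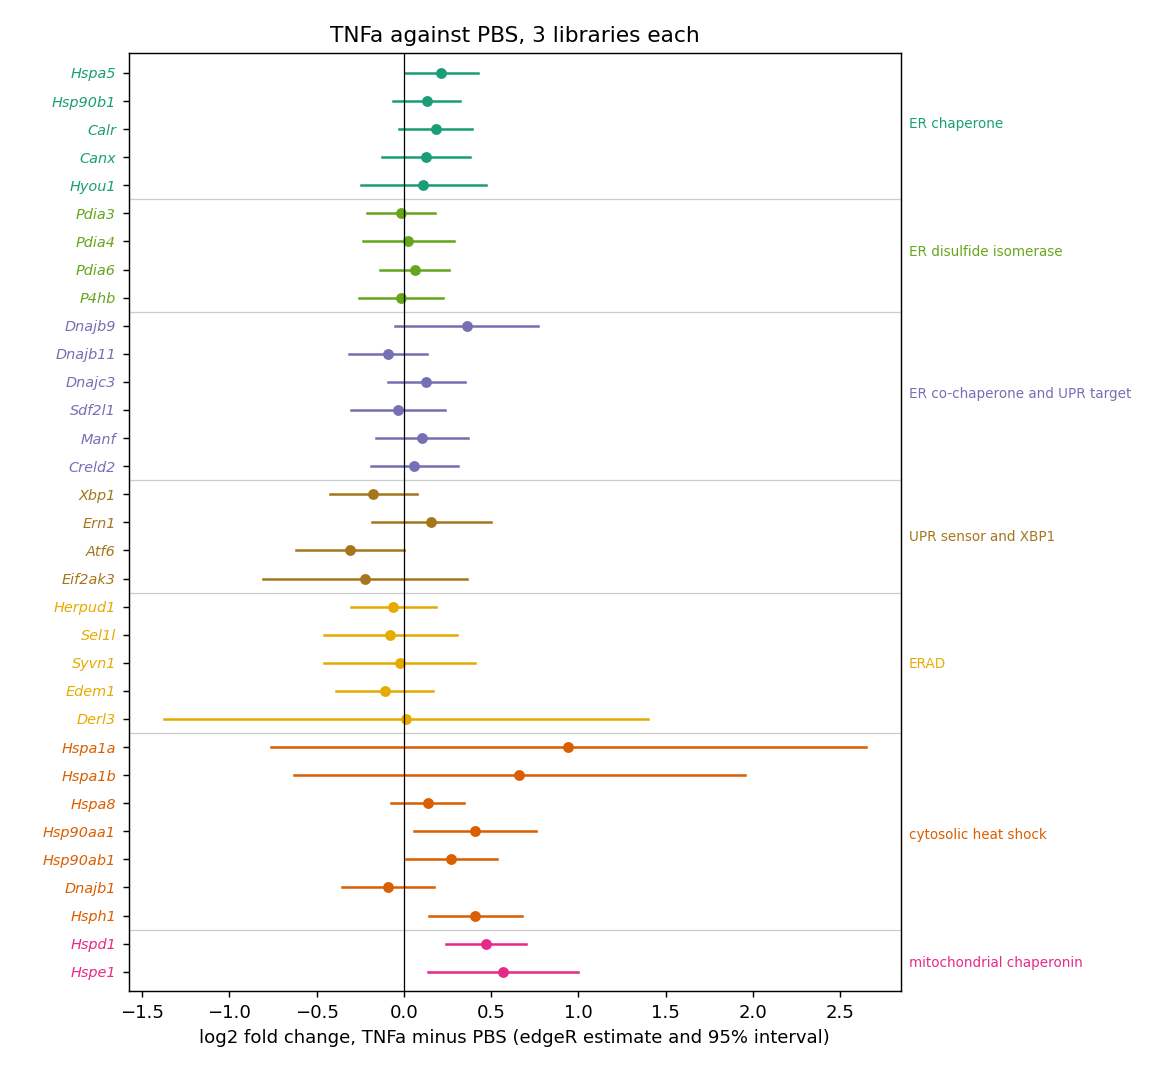
Log2 fold change of each gene, TNFa minus PBS, as estimated by edgeR, with its 95% interval, coloured by role. Most ER genes sit near 0, and Hspd1, Hspe1, Hsph1, Hsp90aa1, Hsp90ab1 and Hspa5 have intervals above 0 before any adjustment for the number of genes.

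Hspd1 and Hspe1 encode HSP60 and HSP10, the barrel and lid of the chaperonin that folds proteins in the mitochondrial matrix. Hspd1 was at 420.2, 365.2 and 405.5 CPM in PBS 1, 2 and 3 and at 524.2, 592.2 and 533.5 in TNFa 4, 5 and 6. All 3 TNFa libraries were above all 3 PBS libraries. The fold was 1.39 (95% interval 1.18 to 1.62; log2 0.47 ± 0.10, SE, adjusted p = 0.199), and it stayed between 1.33 and 1.43 whichever library was left out. DESeq2 gave a log2 fold change of 0.48 with an adjusted p of 0.00464.

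Hspe1 was at 128.9, 131.5 and 101.4 CPM with PBS and at 151.5, 238.5 and 146.6 with TNFa. The groups did not overlap, with TNFa 5 far above the others. Its fold was 1.48 (1.10 to 2.00; adjusted p = 0.435) and 1.23 without TNFa 5. The spans of the 2 genes overlap by 112 bases on opposite strands, and how far strand was used in the counting is not given in the sources used here.

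Among the cytosolic genes, Hsph1 (HSP110), a nucleotide exchange factor for HSP70, had the smallest unadjusted p, 0.00625. It was at 129.8, 100.9 and 117.5 CPM with PBS and at 161.6, 152 and 149 with TNFa. The TNFa libraries lay close together above all PBS libraries (1.33-fold, 1.11 to 1.60; adjusted p = 0.356).

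Hsp90aa1, the inducible cytosolic HSP90, was at 908.4, 766.9 and 776.8 CPM with PBS and at 969.6, 1376 and 907.3 with TNFa. Its groups touched, since TNFa 6 lay just under PBS 1, and TNFa 5 was much the highest. The fold of 1.33 (1.04 to 1.69; adjusted p = 0.509) was 1.15 without TNFa 5.

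Hsp90ab1, again highest in TNFa 5, was at 1846, 1616 and 1639 CPM with PBS and at 1874, 2372 and 1915 with TNFa. The groups did not overlap, but TNFa 4 lay only slightly above PBS 1 (1.21-fold, 1.009 to 1.45; adjusted p = 0.564), and the fold was 1.11 without TNFa 5. Hspa8 was at 981.4, 852 and 887.3 CPM with PBS and at 987.9, 1016 and 987.4 with TNFa, a narrow separation (1.10-fold, 0.95 to 1.27). Dnajb1, an HSP40 that hands substrates to HSP70, was the one cytosolic gene with a fitted value below 0, at 103.2, 105.1 and 95.2 CPM with PBS and 83.5, 103.6 and 97.9 with TNFa (0.94-fold, 0.78 to 1.13).

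The inducible HSP70 genes stood apart in a single library. Hspa1a was at 3.75, 3.30 and 3.39 CPM with PBS, and at 16.5, 1.44 and 2.17 in TNFa 4, 5 and 6. Hspa1b was at 5.47, 8.35 and 2.88 CPM with PBS and at 17.6, 3.59 and 5.30 with TNFa. In both genes TNFa 4 was far above every other library, while TNFa 5 and 6 were not above the PBS range. The fitted log2 fold changes of 0.94 for Hspa1a and 0.66 for Hspa1b (adjusted p = 0.789 and 0.804) became -0.95 and -0.33 without TNFa 4. The 2 genes are near-identical neighbours on chromosome 17 between which reads can be shared out wrongly; summed to 1 gene, an alternative chosen after seeing the data, they gave a log2 fold change of 0.78 (adjusted p = 0.776). TNFa 4 was the highest library in 3 of the 7 cytosolic genes, this pair and Hsph1. In Hsph1 it stood at 161.6 CPM, against 152 and 149 in TNFa 5 and 6. In Hspa8, Hsp90aa1 and Hsp90ab1 the highest library was TNFa 5. In Dnajb1 TNFa 4 was the lowest of the 6.

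**Figure D4:**
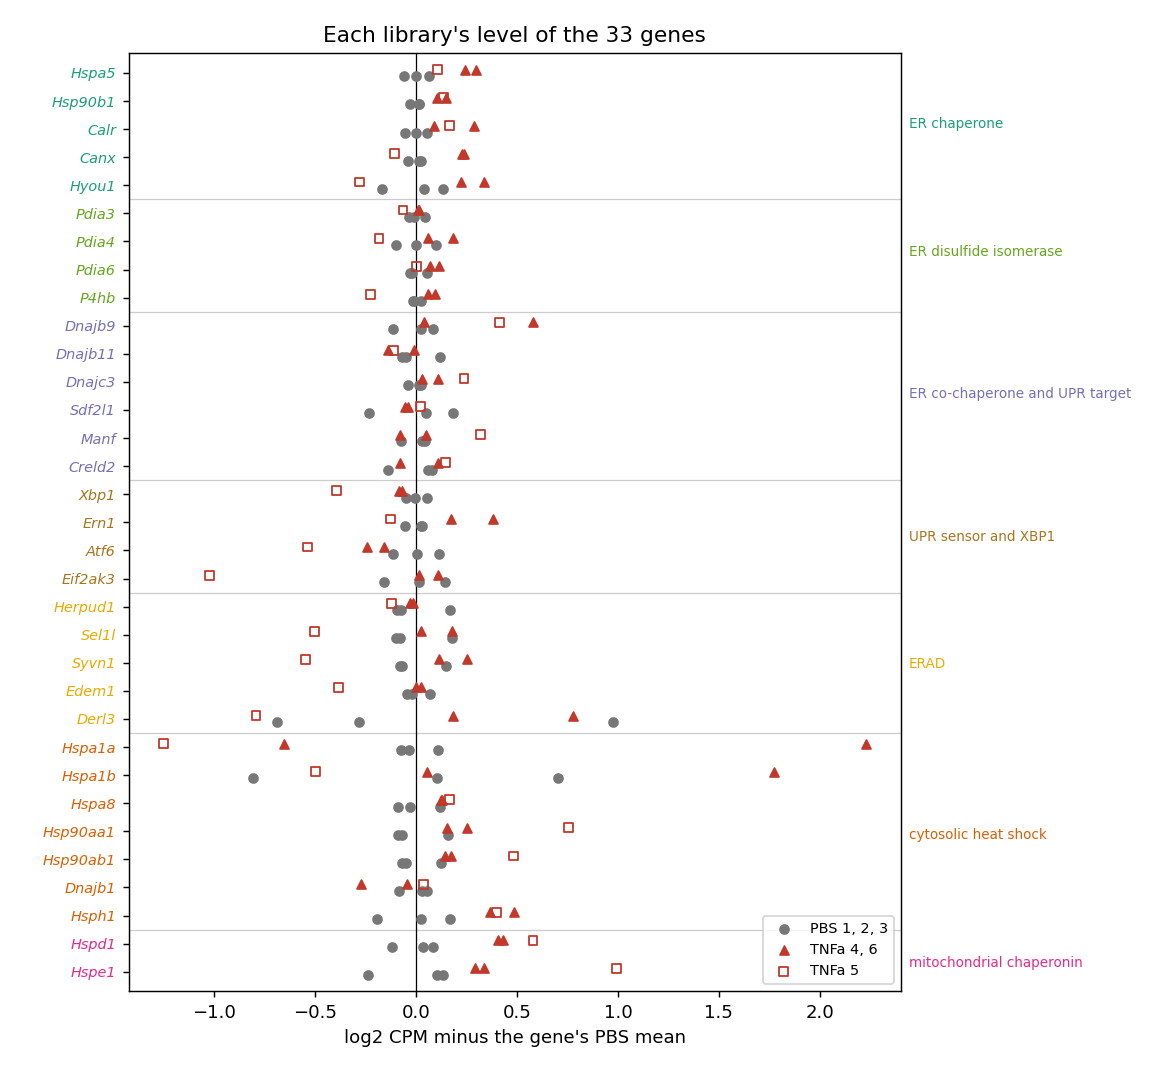
Log2 CPM of each of the 33 genes in each library as the difference from that gene's PBS mean, grouped by role (grey circles PBS, red triangles TNFa 4 and 6, open red squares TNFa 5). TNFa 5 is lowest of the 6 libraries in 14 of 24 ER genes, and TNFa 4 is far to the right for Hspa1a and Hspa1b.

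Among the ER genes the 5 chaperones all had fitted values above 0. Hspa5 was at 1244, 1297 and 1358 CPM with PBS and at 1534, 1399 and 1593 with TNFa. Every TNFa library was above every PBS library on this scale, by a small margin in TNFa 5 (1.16-fold, 1.003 to 1.34; adjusted p = 0.588). Calr was at 1152, 1242 and 1195 CPM with PBS and 1271, 1341 and 1459 with TNFa (1.13-fold, 0.98 to 1.31). Hsp90b1 was at 1651, 1600 and 1652 CPM and at 1757, 1797 and 1809 (1.09-fold, 0.96 to 1.25), also without overlap. A gene on the other strand, 1810014B01Rik, covers 4598 bases of the Hsp90b1 span, and Gm15344, on the same strand, covers 977. Canx, the membrane-bound lectin chaperone, and Hyou1, the exchange factor GRP170, overlapped between groups, with folds of 1.09 and 1.08, or 1.17 and 1.21 without TNFa 5. In both of these TNFa 5 was the lowest library and TNFa 4 and 6 the highest.

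The groups overlapped in all 4 disulfide isomerases. Pdia3 was at 1541, 1487 and 1460 CPM with PBS and at 1509, 1430 and 1503 with TNFa, and its interval of 0.86 to 1.13 lies inside 1.5-fold either way. Pdia4, Pdia6 and P4hb had folds of 1.02, 1.04 and 0.99, each with an interval inside the bounds of 1.5-fold. Of all 24 ER genes 20 had an interval inside those bounds and 23 inside 2-fold. These intervals rest on the spread between these libraries, which may be technical. They therefore bound the difference between these libraries, and not with certainty the effect of TNFa. The exception at 2-fold was Derl3, at 2.45, 0.987 and 0.728 CPM with PBS and 2.13, 0.673 and 1.39 with TNFa, where counts are too low to say more than an interval of 0.39 to 2.63.

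Co-chaperones and secreted targets of the response gave mixed values. Dnajb9, the ERdj4 co-chaperone that holds IRE1 in check and a standard readout of XBP1, was at 19.6, 17.1 and 18.8 CPM with PBS and at 27.6, 24.6 and 19.0 with TNFa. TNFa 4 and 5 were above all PBS libraries and TNFa 6 was within them (1.28-fold, 0.97 to 1.71; adjusted p = 0.662), the largest fitted fold of the ER genes. Dnajc3 (p58IPK), a BiP co-chaperone, was at 247.8, 246.4 and 237 CPM with PBS and 248.3, 287.3 and 263.1 with TNFa, where the lowest TNFa library barely passed the highest PBS library (1.09-fold, or 1.05 without TNFa 5). Sdf2l1 and Creld2 had folds of 0.98 and 1.04 with overlapping groups. Dnajb11 (ERdj3), another BiP co-chaperone, was at 335.7, 299 and 294.9 CPM with PBS and 280.8, 286.3 and 306.9 with TNFa (0.94-fold).

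Manf, a secreted ER protein with the highest CPM of this role though below Sdf2l1 and Creld2 in TPM, was at 449.3, 445.2 and 413.6 CPM with PBS and 412.5, 543.2 and 451.6 with TNFa. TNFa 4 was the lowest and TNFa 5 the highest of the 6 libraries, and the fold was 1.08, or 0.989 without TNFa 5. The gene overlaps Dcaf1 on the other strand over 42681 bases and Rbm15b on its own, so its counts are uncertain.

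Of the 3 sensors and Xbp1, all but Ern1 had fitted values below 0. Xbp1 was at 615.8, 571.4 and 590.8 CPM with PBS and at 564.6, 451 and 559.1 with TNFa. All 3 TNFa libraries were below the PBS libraries, TNFa 5 by far the most (0.89-fold, 0.75 to 1.05; adjusted p = 0.731), and the fold was 0.95 without TNFa 5. Atf6 was at 60.6, 70.9 and 65.9 CPM with PBS and 55.4, 45.2 and 58.8 with TNFa, again without overlap in CPM (0.81-fold, 0.65 to 1.00; adjusted p = 0.601), and the fold was 0.867 without TNFa 5. Atf6 had the lowest fitted value of the 33 genes.

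Ern1 overlapped between groups (1.12-fold), as did Eif2ak3 (PERK), at 35.4, 31.4 and 38.7 CPM with PBS and 35.4, 17.2 and 37.8 with TNFa. The fitted value of Eif2ak3, -0.22, rested on TNFa 5 and was 0.06 without it.

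ER-associated degradation exports misfolded proteins to the proteasome. None of its 5 genes separated the groups, and their folds ran from 0.93 to 1.007. Edem1, a lectin that picks glycoproteins for disposal, was at 303.8, 298.6 and 323.4 CPM with PBS and 313.2, 236.1 and 308 with TNFa. Only TNFa 5 was low. The same library was the lowest for Sel1l and Syvn1 (HRD1), partners in the ligase complex, and their fitted values of -0.08 and -0.02 were 0.10 and 0.18 without it. Herpud1, which recruits that complex, had a fold of 0.96.

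TNFa 5 stood apart in these roles in both directions. Relative to PBS, the median of its degradation genes was -0.50 and that of its sensors with Xbp1 -0.47, while its co-chaperones stood at 0.19 and the mitochondrial pair at 0.79. In TNFa 4 the same 4 medians were 0.02, -0.03, -0.06 and 0.37, and in TNFa 6 0.18, 0.01, 0.05 and 0.36. Both mitochondrial genes were above their PBS mean in all 3 TNFa libraries, the least being 0.29 for Hspe1 in TNFa 6. The part that the state of TNFa 5 has in these values was not tested beyond leaving it out.

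The genes that share a promoter element can be set side by side with the others. The 9 genes with an ERSE had a median log2 fold change of 0.13, ranging from -0.02 to 0.22, and 4 of them had groups without overlap in CPM, all higher, beside 6.83% of all tested genes on that side; of these Hspa5, Hsp90b1 and Calr overlapped in TPM. With the 2 ERSE-II genes added, the 11 genes had a median of 0.06, from -0.09 to 0.22, with 8 fitted values above and 3 below 0. The 10 ER genes whose window held no ERSE or ERSE-II had a median of -0.03, from -0.22 to 0.36. Of them 1, Xbp1, had groups without overlap in CPM, lower with TNFa, beside 8.35% of all tested genes on that side. The 3 genes with a heat shock element, of which 2 share their sites, had values from 0.41 to 0.57. The cytosolic genes Hspa1a, Hspa1b and Dnajb1, whose windows held no such element, had values of 0.94, 0.66 and -0.09. Those of Hspa1a and Hspa1b fell below 0 without TNFa 4. The cytosolic genes Hsp90aa1, Hsp90ab1 and Hspa8, at 0.41, 0.27 and 0.14, had no window and could not be searched. These are descriptions of small sets, and neither the factors nor their binding were measured.

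Related genes outside the 33 were read from 7 further lists, none of which had a member called by edgeR, and these fold changes are shown in the plot of related gene lists. The list with the largest share of groups without overlap was the TRiC chaperonin, which folds actin and tubulin, with its partner prefoldin. All 14 of its genes had fitted values above 0, with a median of 0.20, 5 had an unadjusted p under 0.05 and 8 had groups without overlap, all higher, beside 3.68% and 6.83% of all tested genes on that side. Cct6a was at 545.9, 497.4 and 514.4 CPM with PBS and at 664.4, 645 and 630.1 with TNFa (log2 fold change 0.32 ± 0.09, adjusted p = 0.356). Cct8 was at 495.1, 484.3 and 525.6 CPM and at 604.2, 620.2 and 617.4 (adjusted p = 0.393). The subunit genes Cct4 and Vbp1 had log2 fold changes of 0.23 and 0.34. In TNFa 4, 5 and 6 the median of the list stood 0.19, 0.25 and 0.12 above PBS, so the values were not those of 1 library.

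**Figure D5:**
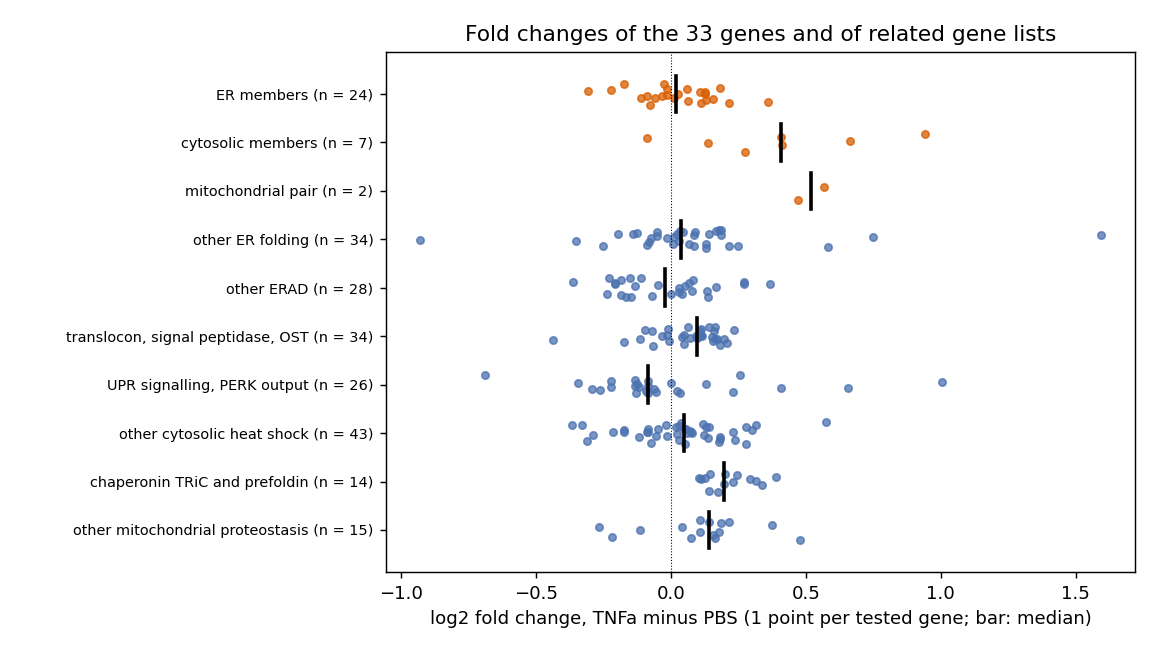
Log2 fold changes, TNFa minus PBS, of the tested genes of each list (orange, the 33 genes by compartment; blue, related lists; black bars, medians). The TRiC and prefoldin list has all 14 genes above 0, and the ER lists have values on both sides of 0.

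Of 15 other genes of mitochondrial protein quality control 12 had fitted values above 0 (median 0.14). Htra2, a protease of the intermembrane space, was at 65.6, 58.2 and 73.1 CPM with PBS and 92.6, 93.3 and 88.4 with TNFa (log2 fold change 0.48 ± 0.12, adjusted p = 0.293; DESeq2, adjusted p = 0.0219). Yme1l1 had a value of 0.37, and Spg7 and Afg3l1, subunits of matrix-facing proteases, -0.27 and -0.22, each of the 3 without overlap between groups. Of the 15 genes 5 had groups without overlap, beside 15.2% of all tested genes. Of these 3 were higher and 2 lower, beside 6.83% and 8.35% of all tested genes.

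In the list of 43 other tested cytosolic heat shock genes the median was 0.05. An unadjusted p under 0.05 was seen in 4, all higher, beside 3.68% of all tested genes on that side. These were Cacybp, Ppid, Dnaja1 and St13, co-factors of HSP90 and HSP70, at 0.30, 0.31, 0.28 and 0.28 (adjusted p = 0.421, 0.435, 0.462 and 0.479). Hsf1 itself stood at -0.02.

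The other ER lists had values on both sides of 0. The 34 other folding genes had a median of 0.04 and none at an unadjusted p under 0.05; the smallest p-values belonged to Fkbp11 (0.58), Cnpy4 (-0.35), Serp1 (0.21) and the scarce Fkbp14 (1.59). The 28 other degradation genes had a median of -0.02, and among them Os9 stood at -0.23, Ube2j1 at -0.24 and Derl1 at -0.19. The 34 genes of the translocon, signal peptidase and oligosaccharyltransferase had a median of 0.10, with 24 fitted values above and 10 below 0. Among them Stt3b, a catalytic subunit of glycosylation, stood at -0.44 (adjusted p = 0.432), beside Sec11c at 0.19, Srp54c at 0.18 and Spcs2 at -0.17.

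Of 26 tested genes of UPR signalling and the PERK output 18 had fitted values below 0 (median -0.09). Atf3, an early stress factor, was at 6.85, 4.18 and 4.12 CPM with PBS and 7.51, 8.93 and 13.9 with TNFa, without overlap (log2 fold change 1.00 ± 0.33, adjusted p = 0.421). Trib3, Map3k5 and Creb3l2 stood at -0.35, -0.29 and -0.26, also without overlap. Groups without overlap were seen in 4 of the 26 genes (15.4%), close to the 15.2% of all tested genes. Atf4 and Ddit3 (CHOP), the main factors downstream of PERK, stood at -0.000316 and -0.06 (adjusted p = 0.999 and 0.959).

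The ILC2 markers summed to 10130 to 11480 CPM with PBS and 10640 to 11710 with TNFa, led by Il5 and Il2ra, and none of the 14 was at 0. Of the 14, 1 was called by edgeR, beside 0.102% of all tested genes. It was the co-stimulatory receptor gene Icos, at 939.5, 809.4 and 914 CPM with PBS and 524.6, 480.3 and 545.1 with TNFa (adjusted p = 0.0363). Groups without overlap were seen in 9 of the 14, beside 15.2% of all tested genes, and 7 of them were lower, beside 8.35%. Plasma cells are rich in ER chaperones; the B and plasma cell list summed to 347.7 to 394.8 CPM with PBS and 271.7 to 443.5 with TNFa, over 10 of its 12 genes, of which 2 were at 0 in TNFa 5. Its most abundant genes were Irf4 and Ighm, the former also made by other lymphocytes, while the plasma cell gene Sdc1 stood at 1.14 and 1.19 CPM with PBS and TNFa. TNFa 5, lowest in many ER genes, also had the lowest sum of this list. Mast cell and basophil markers, led by Tpsab1 and Cma1, summed to 1339 to 1474 CPM with PBS and 1382 to 1566 with TNFa. T cell markers, led by Trbc2 and Trbc1, came to 422.7 to 454.4 and 357.8 to 416.7 CPM, myeloid markers, led by Chil3 and Lyz2, to 43.6 to 101.9 and 16.9 to 57.6, and structural markers, led by Pecam1 with Epcam next, to 124.9 to 154.3 and 147.8 to 207.2. Of these sums only that of T cell markers separated the groups, lower with TNFa. The part of these cells in the values of the 33 genes was not tested.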

How the data were processed

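The authors deposited estimated counts per gene for 6 libraries, per the file headers and name the output of Partek's E/M quantifier at gene level; such counts need not be whole, because reads that match several genes are divided among them. CASAVA 1.8.2, STAR and mm10 are listed in the submitters' processing notes, without role; for the annotation release, strand setting and gene filter nothing is stated there. Libraries totalled 25089415 to 32487004 counts, so the spread between libraries, more than counting error, limits precision except for genes near 1 CPM.

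Counts were rounded and tested with edgeR 4.0.16 (R 4.3.3): filterByExpr (minimum count 10, minimum total 15), TMM, robust quasi-likelihood, Benjamini-Hochberg over 15719 genes, threshold 0.05. Each SE was derived from the log2 fold change and F, and intervals are 95%. Alternatives used DESeq2 1.42.0, limma-voom (limma 3.58.1), other scalings and filters, and each library left out. Deviations use log2 CPM with a prior count of 2. TPM used exon lengths of GENCODE M21, also mm10, where 21197 of 21825 genes had the same coordinates. Coordinates are 1-based. The procedure was also run on simulated data, and how many changed genes it recovered is not reported here. The 33 genes, the lists and the tests were chosen with earlier results of these data known. Values in every library are given for genes without overlap between groups, for the 6 highest and 6 lowest fitted values and for the most abundant of each role; of each related list the 4 smallest p-values are named, and of each marker list the 2 most abundant genes and any called. Others were added after their values were seen. Some genes that this rule would name are not reported here. Protein sequences were not analysed here.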

Additional observations from a re-analysis of the deposited data

How the results depend on the processing

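None of the 33 genes was called by edgeR under any scaling, filter or left-out library, nor by limma-voom; DESeq2 called 1 of them, Hspd1, and 1 gene of mitochondrial proteostasis, Htra2. Over all genes DESeq2 called 218, edgeR without a filter 3 and with a mean of at least 5 CPM 25, against 16; leaving out 1 library gave 1 (without PBS 1) to 67 (without TNFa 5), and the cause was not tested. With limma-voom the cytosolic median was 0.27 and the ER median less the cytosolic one -0.22. Leaving out 1 library gave 0.14 to 0.49 for the cytosolic median (lowest without TNFa 4, 0.20 without TNFa 5) and -0.44 to -0.115 for the difference. Scaling to totals or by DESeq2 size factors gave ER medians of 0.03 and 0.02, cytosolic medians of 0.40 and 0.42 and mitochondrial medians of 0.51 and 0.53.

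Of the settings tried on single genes, 438 values kept direction and side of the threshold, 23 changed sign and 1, Hspd1 with DESeq2, passed the threshold. With the 5 CPM filter Pdia3 (0.0054) and P4hb (0.0018) changed sign. Signs also changed on leaving out 1 library, with log2 fold changes between -0.016 and 0.28 for Hyou1, -0.034 and 0.0088 for Pdia3, -0.061 and 0.12 for Pdia4, -0.078 and 0.076 for P4hb, -0.145 and 0.062 for Sdf2l1, -0.016 and 0.19 for Manf, -0.0095 and 0.12 for Creld2, -0.42 and 0.056 for Eif2ak3, -0.10 and 0.028 for Herpud1, -0.22 and 0.10 for Sel1l, -0.185 and 0.18 for Syvn1, -0.19 and 0.0077 for Edem1, and -0.43 and 0.70 for Derl3. The extremes for Hspa1a were -0.95 and 1.42 and for Hspa1b -0.33 and 1.07. The cause of these sign changes was not tested; none of these genes passed the threshold with any sign.

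No paired analysis was possible because the groups share no replicate number (PBS 1 to 3, TNFa 4 to 6). Depth limits Derl3, with 18 to 72 counts per library.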
